A study of Mus musculus with 2 samples.

Results

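The NRF2, glutathione and redox enzyme genes, 49 in all, were compared between the liver-metastatic 4T1-3R population (4T1-3R_L) and 4T1 parental cells. Members were found by symbol: a probe set was used where its annotation named a single gene and that gene was on the list. Of the 49 genes, 45 had such a probe set, out of 18193 genes with one on the array. Where a gene had several, the one strongest on average over both arrays (log2 signal) was used. A gene is called measured where that probe set reached a floor of 90.6, the median signal over both arrays, on at least 1 array. This held for 41 of the 45 genes, against 11135 of all 18193 genes, and 40 of the 41 reached the floor on both arrays. The peroxidase genes Gpx2, Gpx3 and Gpx7 and the transferase gene Gstt2 lay under the floor on both arrays. All 5 probe sets of Prdx1 carry a further gene symbol and were left out, and Prdx5, Prdx6 and G6pdx are not analysed here.

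Both populations are cultured mouse mammary carcinoma cells. The 4T1-3R_L cells were recovered from liver metastases in vivo and then cultured, and they make up 1 array. The 4T1 parental line, established from a BALB/c mammary tumour and carrying no further selection in the labels, makes up the other. The labels do not say how many mice or clones stand behind the 4T1-3R_L culture. Total RNA was labelled with biotin and hybridised to Affymetrix expression arrays. A single array per group leaves no spread between replicates, so no test was run and every value describes these 2 arrays. In bulk RNA, fewer cells of a type and less RNA per cell cannot be told apart.

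As background, NRF2, the product of Nfe2l2, is a transcription factor held at a low level by KEAP1, which hands it to a ubiquitin ligase until oxidants or electrophiles modify its cysteines. Released NRF2 pairs with small MAF proteins and binds antioxidant response elements in genes for glutathione synthesis, thioredoxin recycling, NADPH supply and detoxification. Glutathione and thioredoxin carry the reducing power of NADPH to the enzymes that clear peroxides. Much of the control of NRF2 acts on the protein, which an expression array does not measure.

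Most members, like most measured genes, differed by less than 1.5-fold between the arrays. The few differences of 2-fold or more ran mainly toward higher signals in 4T1-3R_L cells, in small counts not tested against the background. That balance turned when the arrays were scaled to their hybridisation controls. A 4T1-3R_L signal 2-fold or more above the parental one was found for 4 of the 41 measured members, against 6.22% of all measured genes, and 1 member was lower by that much, against 4.48%. The 4 higher genes were Txnip, Gstt1, Aldh3a1 and Mt1, and the lower gene was Prdx3. At 1.5-fold, 10 members were higher, against a background of 15.8%, and 5 were lower, against a background of 14.0%. Of the other 26, 25 lay within 1.5-fold, and for Sod3, with a parental signal under the floor, only a lower bound of its fold is known. The log2 ratio, 4T1-3R_L over parental, was above 0 in 29 of 41 members and in 49.5% of all measured genes. Its median was 0.20 over the members and -0.01 over all measured genes, and no test of that gap was made.

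Directions depend on how the arrays are scaled. The deposited values have the same trimmed mean on both arrays. Scaling to the hybridisation controls, labelled transcripts of other organisms spiked into the hybridisation mix, moved the median of all measured genes to -0.54 and that of the members to -0.38. At 2-fold, 2 of the 40 members measured in that scaling were then higher and 8 lower, beside 2.18% and 20.6% of all measured genes. The members then lay 0.17 above the median gene, against 0.21 in the deposited scaling. Directions below are those of the deposited scaling, and class medians are also given under the control scaling.

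**Figure D1:**
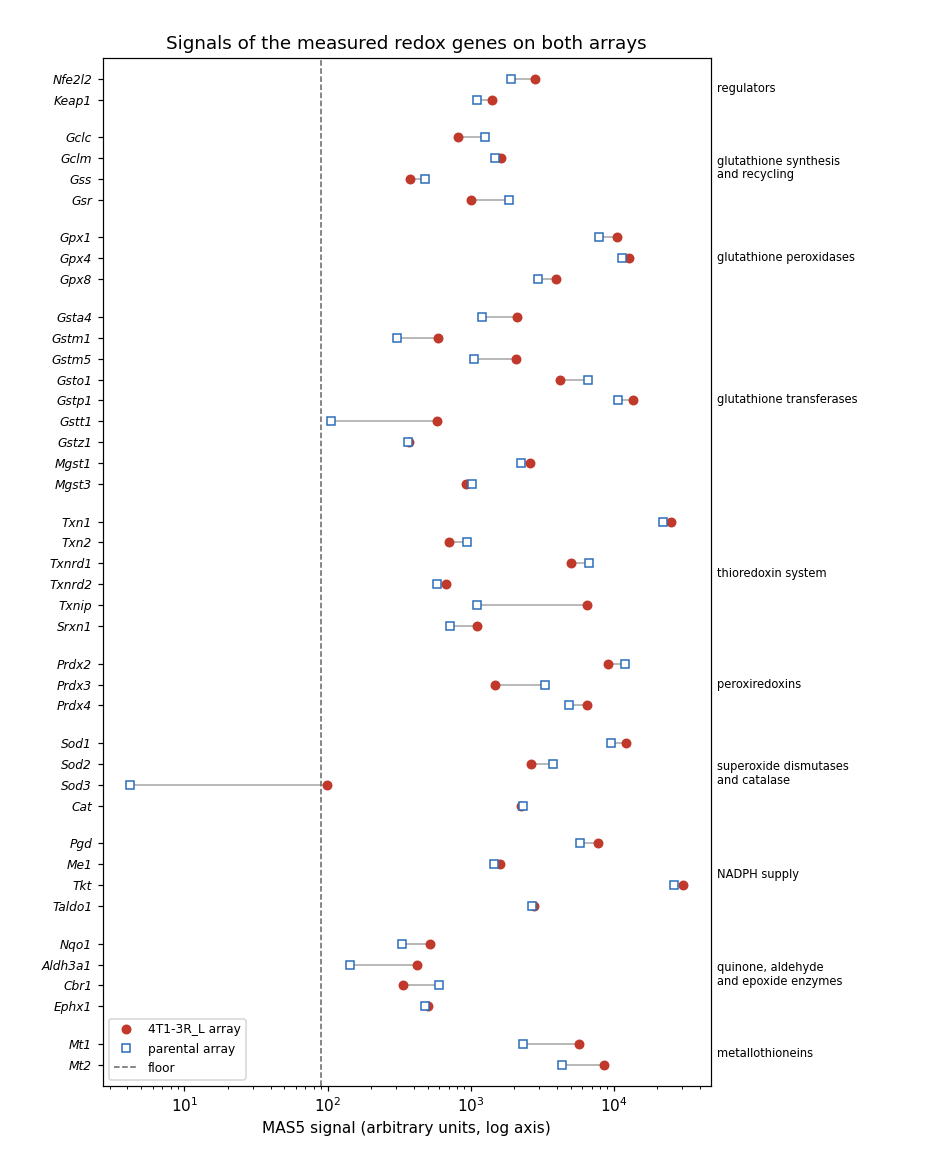
MAS5 signal (arbitrary units, log axis) of the probe set used for each of the 41 measured genes, grouped by enzyme class, on the 4T1-3R_L array (filled circles) and the parental array (open squares); the dashed line is the floor of 90.6. Signals are comparable within a row only, and the widest gaps between 2 signals above the floor are those of Txnip and Gstt1; the parental signal of Sod3 lies far under the floor.

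**Figure D2:**
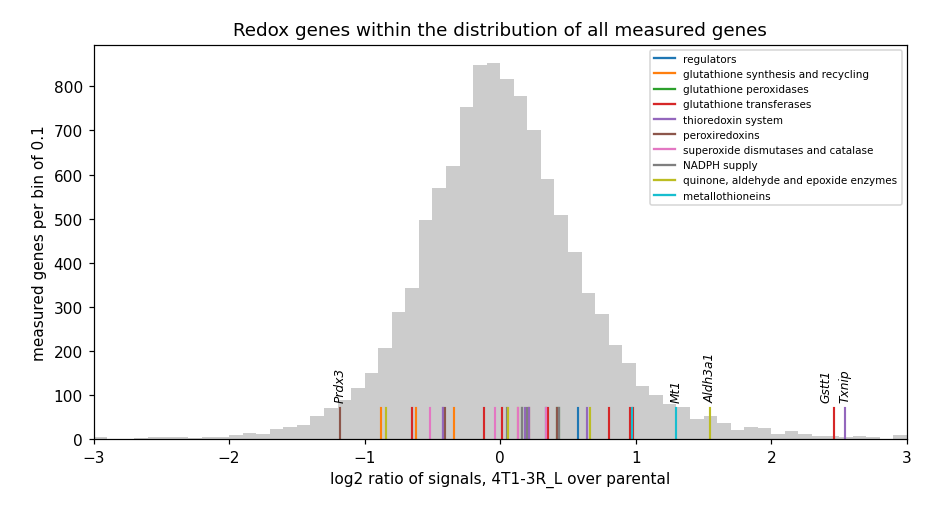
Histogram of the log2 ratio of signals, 4T1-3R_L over parental, for all measured genes in bins of 0.1, with a coloured tick for each of the 41 redox genes by class. Ticks crowd the centre of the distribution, Txnip and Gstt1 stand in its upper tail and Prdx3 in its lower tail; genes with a ratio beyond 3 in size are not drawn.

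Nfe2l2 had a signal of 2816 in 4T1-3R_L cells and 1901 in parental cells, a 1.48-fold difference. Keap1, its inhibitor, had signals of 1400 and 1106 in 4T1-3R_L and parental cells, a log2 ratio of 0.34. A second Keap1 probe set pointed the other way, at -0.21. The regulators thus had a median log2 ratio of 0.45, which was -0.13 under the control scaling.

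In the glutathione synthesis and recycling class, 3 of 4 genes had negative log2 ratios, with a median of -0.48 (-1.06 under the control scaling). Gsr, glutathione reductase, which returns oxidised glutathione to its reduced form with NADPH, had a signal of 1011 in 4T1-3R_L cells against 1854 in parental cells, 1.83-fold lower. Its second probe set gave 594 in 4T1-3R_L cells against 1544 in parental cells, a log2 ratio of -1.38. Only 6.30% of all measured genes had a ratio as low as that of the Gsr probe set used. The subunits of glutamate-cysteine ligase, which makes the first and rate-limiting step of glutathione synthesis, differed in sign. The catalytic subunit gene Gclc was 1.54-fold lower, at 814 in 4T1-3R_L cells and 1254 in parental cells, with a ratio of -0.55 from the other probe set. The modifier subunit gene Gclm had signals of 1630 and 1486 in 4T1-3R_L and parental cells, a log2 ratio of 0.13, with 0.42 on its second probe set. Glutathione synthetase, Gss, which adds the glycine, had signals of 378 in 4T1-3R_L cells and 479 in parental cells, a ratio of -0.34, or -0.87 by its other probe set. Both probe sets of Gsr, Gclc and Gss were therefore lower in 4T1-3R_L cells, and both of Gclm higher, although Gclm stood at -0.45 under the control scaling.

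Glutathione transferases, which attach glutathione to electrophiles, were the largest class and held the most members past 1.5-fold. Of 9 measured, 4 were higher and 1 was lower, against backgrounds of 15.8% and 14.0%. Gstt1, of the theta class, had a signal of 584 in 4T1-3R_L cells and 106.4 in parental cells, a 5.49-fold difference and a log2 ratio of 2.46. The parental value is close to the floor, and the ratio was 1.79 with the floor at the 60th percentile. Counting Gstt1 itself, 61 of all measured genes had a ratio as high. The mu class gene Gstm5 was 1.98-fold higher (2069 in 4T1-3R_L cells, 1046 in parental cells). Its relative Gstm1 was 1.94-fold higher (593 in 4T1-3R_L cells against 306 in parental cells). All 4 Gstm1 probe sets were higher in 4T1-3R_L cells, although 2 of them are of the kind whose probes can match related transcripts. Where both arrays reached the floor, the log2 ratios were 0.96 and 0.79. The other 2 probe sets had parental signals of 17.5 and 61.4, under the floor, so their ratios of 0.91 and 0.43 are lower bounds. Gsta4, of the alpha class, which conjugates the lipid peroxidation product 4-hydroxynonenal, was 1.74-fold higher (2093 in 4T1-3R_L cells against 1201 in parental cells).

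Gsto1, an omega class transferase with thiol transferase activity, went the other way, at 4234 in 4T1-3R_L cells and 6622 in parental cells, 1.56-fold lower. Its second probe set was lower still, with a log2 ratio of -1.13. The pi class gene Gstp1, often raised in tumours, had signals of 13502 in 4T1-3R_L cells and 10612 in parental cells, a log2 ratio of 0.35. Mgst1, a membrane-bound transferase with peroxidase activity, had 2584 in 4T1-3R_L cells and 2240 in parental cells, a ratio of 0.21. Its relative Mgst3 stood at -0.12 and Gstz1, which acts in tyrosine breakdown, at 0.01, so these 4 enzymes lay within 1.5-fold. The class median was 0.35 in the deposited scaling and -0.23 under the control scaling. Gstt2, separated from Gstt1 by 1 protein-coding gene in the gene table, had signals of 5.9 and 18.1 in 4T1-3R_L and parental cells, so the higher Gstt1 signal had no counterpart above the floor in its neighbour.

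The 3 measured glutathione peroxidases had ratios above 0. Gpx1, the cytosolic enzyme, had signals of 10491 in 4T1-3R_L cells and 7836 in parental cells, a log2 ratio of 0.42. Gpx8, a peroxidase of the endoplasmic reticulum, had 3954 and 2934 in 4T1-3R_L and parental cells, a log2 ratio of 0.43. Gpx4, which reduces lipid hydroperoxides in membranes and restrains ferroptosis, had 12758 in 4T1-3R_L cells and 11434 in parental cells, a log2 ratio of 0.16, with 0.47 on its second probe set. The class median was 0.42, and -0.16 under the control scaling. Gpx2, an epithelial enzyme of the gut, had signals of 82.5 and 56.8 in 4T1-3R_L and parental cells, and the secreted Gpx3 had 11.5 in 4T1-3R_L cells and 15.1 in parental cells. Gpx7, the second peroxidase of the endoplasmic reticulum, had 10.1 in 4T1-3R_L cells and 35.4 in parental cells. The floor leaves no ratio to give for these.

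Txnip had the highest log2 ratio of all members. It encodes the thioredoxin-interacting protein, which binds and inhibits reduced thioredoxin and limits glucose uptake. Its signal was 6447 in 4T1-3R_L cells and 1108 in parental cells, a 5.82-fold difference and a log2 ratio of 2.54. A second probe set gave 1409 in 4T1-3R_L cells against 278.8 in parental cells, a log2 ratio of 2.34. Counting Txnip itself, 55 of all measured genes, or 0.494%, had a ratio as high, and the Txnip ratio lay between 1.96 and 2.57 over the 10 alternative settings.

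The remaining thioredoxin genes did not share the size of that difference. Txn1, cytosolic thioredoxin, had signals of 25062 in 4T1-3R_L cells and 22140 in parental cells, a log2 ratio of 0.18, with 0.83 on its second probe set. Its mitochondrial counterpart Txn2 had 700 in 4T1-3R_L cells against 936 in parental cells, a log2 ratio of -0.42, and was lower on all 3 of its probe sets. Txnrd1, the cytosolic thioredoxin reductase and a selenoprotein, had 4990 in 4T1-3R_L cells against 6682 in parental cells, a log2 ratio of -0.42, and was also lower on all 3 probe sets. Txnrd2, the mitochondrial reductase, had 668 in 4T1-3R_L cells and 578 in parental cells, a ratio of 0.21, but 1 of its other measured probe sets gave -1.02. Srxn1, sulfiredoxin, which repairs overoxidised peroxiredoxins, was 1.56-fold higher (1111 in 4T1-3R_L cells, 712 in parental cells). That value was not shared by the next 2 probe sets, at -0.17 and 0.01. The last one had 91.5 in 4T1-3R_L cells and 58.7 in parental cells, under the floor, so its ratio is only known to be at least 0.01. The median of the class was 0.19, and -0.39 under the control scaling.

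Peroxiredoxins are thiol peroxidases that draw on thioredoxin, and 3 of 6 could be measured. Prdx3, the mitochondrial peroxiredoxin, had a signal of 1466 in 4T1-3R_L cells and 3326 in parental cells, 2.27-fold lower, with a log2 ratio of -1.18. It has no second probe set here. Its ratio was at most -1.14 under every alternative tried, and 2.78% of all measured genes had a ratio as low. Cytosolic Prdx2 had 9062 and 12023 in 4T1-3R_L and parental cells, a log2 ratio of -0.41, with -0.70 on its second probe set. Prdx4, which works in the endoplasmic reticulum, had 6496 in 4T1-3R_L cells and 4842 in parental cells, a log2 ratio of 0.42, with 0.54 and 0.98 on its other measured probe sets. The 3 genes thus lay on both sides of 0, with a median of -0.41 (-0.99 under the control scaling).

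Sod1, Sod2 and catalase lay within 1.5-fold on the probe set used, while the size of the Sod3 difference is not known. Sod1, the cytosolic copper and zinc enzyme, had signals of 12152 in 4T1-3R_L cells and 9615 in parental cells, a log2 ratio of 0.34, and all 4 measured probe sets were above 0. Sod2, the mitochondrial manganese enzyme, had 2617 in 4T1-3R_L cells against 3752 in parental cells, a log2 ratio of -0.52, and all 4 of its probe sets were below 0, the lowest at -0.86. Catalase, Cat, the peroxisomal enzyme, had 2249 in 4T1-3R_L cells against 2311 in parental cells, a ratio of -0.04, although its second probe set gave 0.56. Sod3, the extracellular enzyme, had 98.9 in 4T1-3R_L cells and 4.2 in parental cells, so its fold is only known to be at least 1.09 against the floor; its log2 ratio came to 0.81 with the floor at the 40th percentile, and to 1.85 with no floor and a pseudocount of 32. Its second probe set lay under the floor on both arrays. The class median was 0.04 with Sod3 at its bound and -0.04 over the other 3 genes; under the control scaling, where Sod3 was not measured, it was -0.62.

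The 4 measured genes of NADPH supply all had log2 ratios above 0, each under 1.5-fold, with a median of 0.18 (-0.40 under the control scaling). Pgd, 6-phosphogluconate dehydrogenase of the oxidative pentose phosphate pathway, had 7743 in 4T1-3R_L cells and 5757 in parental cells, a ratio of 0.43. Its 3 other probe sets gave 0.23, 1.14 and -0.26, so its direction rests on the probe set. Me1, cytosolic malic enzyme, had 1613 in 4T1-3R_L cells and 1443 in parental cells, a ratio of 0.16, or 0.76 by the other probe set. Transketolase, Tkt, which returns pentose carbon to glycolysis, had 30390 in 4T1-3R_L cells and 26369 in parental cells, a ratio of 0.20, with -0.09 and -0.02 on its other probe sets. Transaldolase, Taldo1, which works beside it, had 2775 in 4T1-3R_L cells and 2679 in parental cells, a ratio of 0.05.

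Among the quinone, aldehyde and epoxide enzymes, Aldh3a1 stood apart. This aldehyde dehydrogenase, which oxidises aromatic and medium-chain aldehydes, had a signal of 423 in 4T1-3R_L cells and 144 in parental cells, a 2.93-fold difference and a log2 ratio of 1.55. Nqo1, the quinone reductase that is a classical NRF2 target, was 1.58-fold higher (521 in 4T1-3R_L cells, 329 in parental cells). Carbonyl reductase, Cbr1, had 338 in 4T1-3R_L cells and 604 in parental cells, 1.79-fold lower. Ephx1, microsomal epoxide hydrolase, had 503 in 4T1-3R_L cells and 481 in parental cells, a ratio of 0.06. Each of these genes has a single probe set, and the class median was 0.36, and -0.22 under the control scaling.

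Both metallothioneins, small cysteine-rich proteins that bind zinc and copper, were higher in 4T1-3R_L cells, also under the control scaling, where their median log2 ratio of 1.13 was 0.55. Mt1 had a signal of 5700 in 4T1-3R_L cells and 2313 in parental cells, a 2.46-fold difference. Mt2 had 8533 and 4369 in 4T1-3R_L and parental cells, a 1.95-fold difference. The genes are neighbours, with 0 protein-coding genes between them in the gene table. The second Mt1 probe set lay under the floor on both arrays, and the one used is of a kind that can match several transcripts; whether it also reads Mt2 was not tested.

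**Figure D3:**
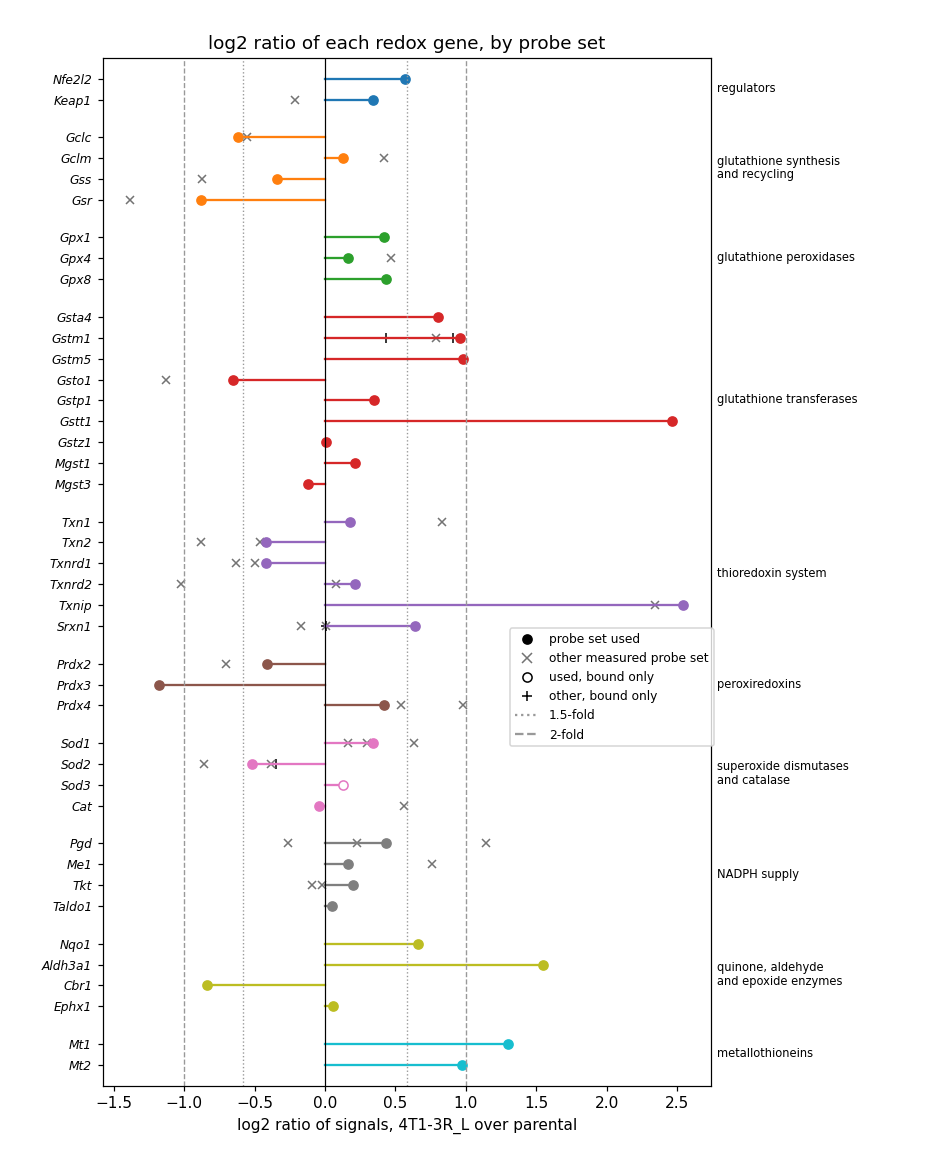
log2 ratio of signals, 4T1-3R_L over parental, for each of the 41 measured genes by enzyme class: filled circles are the probe set used, crosses the gene's other measured probe sets, the open circle and plus signs ratios that are only bounds because 1 array lay under the floor, dotted lines 1.5-fold and dashed lines 2-fold. Both Txnip probe sets lie beyond 2-fold, the symbols of Gclc, Gss, Gsr and Sod2 all lie below 0, and those of Pgd, Txnrd2 and Srxn1 straddle it.

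A second measured probe set existed for 22 members and shared the sign of the first in 17, or 77.3%, against 69.9% of 5377 measured genes with a second probe set. The members where it did not were Keap1, Txnrd2, Srxn1, Cat and Tkt. Of the 6 members at least 1.5-fold apart that had one, Srxn1 alone differed in sign, so 83.3% shared it, against 86.8% of 1671 measured genes that far apart. Txnip, Gstm1, Gclc, Gsr and Gsto1 kept theirs. Probe sets check the array, not the cells.

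Promoter windows of the members were searched for motifs of factors known to act on such genes. RefSeq windows of GRCm38.p6, running from 250 bases before to 50 bases after a transcript start, were available for 42 of the 49 members. The core of the antioxidant response element was searched as TGACNNNGC on both strands. It stood in the windows of 12 members, or 28.6%, against 12.4% of all 32851 windows, counted singly. A member counted where any of its windows held the core. Among measured genes with a window, it stood in 10 of 36 members, against 17.1% of all 9058. Those 12 were Nfe2l2, Gclm, Gstm5, Mgst1, Txnrd1, Srxn1, Prdx1, Sod1, G6pdx, Pgd, Me1 and Mt2. A match is a description of the letters, not of NRF2 binding, which these data do not measure. Of the 10 measured genes among them, 9 had a log2 ratio above 0, with a median of 0.38. Of the 26 measured members whose window lacked the core, 17 were above 0, with a median of 0.17. The measured genes Gclc, Gsr, Gsta4, Sod3 and Aldh3a1 had no window and are in neither set. Nqo1, named above as a classical NRF2 target, is among the 26, so the split does not separate NRF2 targets from other members. The share of all measured genes above 0 was 49.5%. Among the 9, Srxn1 and Pgd each had another probe set below 0. Under the control scaling, 3 of the 10 and 5 of the 26 were above 0. The medians then lay 0.35 and 0.13 above that of all measured genes. The gap was not tested, and other genes with the core were not compared. Among the 10 genes, ratios ran from 0.98 for Gstm5 to -0.42 for Txnrd1. The stretches below are shown for Gstm5 and Txnrd1 as these extremes and for Gclm between them, with the core on either strand in capitals and bases read 5′ to 3′ along the gene.
Gstm5, chr3:107895754-107895853, plus strand: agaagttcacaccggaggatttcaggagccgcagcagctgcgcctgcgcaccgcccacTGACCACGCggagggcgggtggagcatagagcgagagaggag
Gclm, chr3:122245377-122245476, plus strand: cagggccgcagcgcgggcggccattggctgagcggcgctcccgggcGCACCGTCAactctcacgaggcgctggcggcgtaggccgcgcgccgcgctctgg
Txnrd1, chr10:82859066-82859165, plus strand: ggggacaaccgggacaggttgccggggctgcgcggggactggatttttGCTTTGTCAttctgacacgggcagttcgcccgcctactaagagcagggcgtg

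The metal response element core, bound by the zinc-sensing factor MTF1, was searched as TGCACNC and TGCGCNC on both strands. It stood in 13 members' windows, or 31.0%, against 25.7% of all windows, counted singly. Among measured genes with a window, it stood in 11 of 36 members, against 41.2% of all. Both metallothionein windows held it, and the upstream parts are shown because Mt1 and Mt2 were the only class with every measured member at least 1.5-fold higher. Capitals mark this core on either strand.
Mt1, chr8:94178989-94179088, plus strand: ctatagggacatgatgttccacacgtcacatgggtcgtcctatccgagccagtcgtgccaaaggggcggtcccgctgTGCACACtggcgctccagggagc
Mt2, chr8:94172468-94172617, plus strand: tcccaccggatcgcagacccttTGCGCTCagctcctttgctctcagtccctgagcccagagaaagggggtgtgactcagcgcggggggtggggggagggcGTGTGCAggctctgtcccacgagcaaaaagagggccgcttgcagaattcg
The E-box CACGTG, searched because E-boxes serve the glucose-sensing factors known to act on Txnip, stood in the window of Prdx4 and of no other member, against 7.15% of all windows. Among measured genes with a window, it stood in 1 of 36 members, against 11.9% of all. The search says only that these exact letters are not in the Txnip window of this length. Inexact forms of the E-box were not searched.

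Where the proteins work gave a further description, grouped after the values were seen. Txn2, Txnrd2, Prdx3 and Sod2, the 4 members named above as mitochondrial, had a median log2 ratio of -0.47, with 3 of 4 below 0. Of all measured genes, 49.5% were above 0. The group leaves out members whose proteins work in mitochondria among other places, and it was not tested. Of 3 members in the lumen of the endoplasmic reticulum, Prdx4 and Gpx8 had ratios of 0.42 and 0.43, and Gpx7 was under the floor on both arrays. Of 6 selenoprotein members, whose translation reads a stop codon as selenocysteine, 4 were measured, with ratios from -0.42 for Txnrd1 to 0.42 for Gpx1.

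Other genes of the pathway, listed by role, also went both ways: 43 were measured outside the members, with 5 higher and 4 lower by 2-fold or more (backgrounds 6.22% and 4.48%), or, under the control scaling with its backgrounds of 2.18% and 20.6%, 0 and 11. Among 8 partners and repressors of NRF2, the small MAF genes Mafk and Maff were 2.35-fold and 2.23-fold higher. Mafk had 614 in 4T1-3R_L cells and 261 in parental cells. Maff had 757 in 4T1-3R_L cells and 340 in parental cells. The third small MAF gene, Mafg, had a log2 ratio of -0.27, the competing repressor Bach1 0.13 and the autophagy adaptor Sqstm1, which sequesters KEAP1, -0.32. The ligase genes Cul3 and Rbx1 had ratios of 0.03 and 0.35.

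Among 9 measured further NRF2 targets, 1 passed 2-fold in each direction, against backgrounds of 6.22% higher and 4.48% lower. The genes were Blvrb, biliverdin reductase B (528 in 4T1-3R_L cells, 196 in parental cells, 2.70-fold higher), and Hmox1, heme oxygenase (151 in 4T1-3R_L cells against 321 in parental cells, 2.12-fold lower), both enzymes of heme breakdown. The aldo-keto reductase gene Akr1b8 had a log2 ratio of 0.77, the heme transporter gene Slc48a1 0.74 and the cystine transporter gene Slc7a11 -0.58. Slc7a11 lay near the floor, at 120.8 in 4T1-3R_L cells and 180.0 in parental cells, and its ratio was -0.09 with the floor at the 60th percentile. Hmox1, at 151 in 4T1-3R_L cells, came under 2-fold with that floor, at a ratio of -0.93. It was at least 2-fold lower in 7 of 10 alternative settings.

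In cystine and glutathione turnover, 1 of 9 measured genes passed 2-fold upward and 0 downward, against backgrounds of 6.22% and 4.48%. Ggct, gamma-glutamylcyclotransferase, which cleaves gamma-glutamyl amino acids, had 1246 in 4T1-3R_L cells and 426 in parental cells, 2.92-fold higher. The mitochondrial glutaredoxin gene Glrx5 had a ratio of -0.77, cytosolic Glrx 0.72, the glutathione-degrading enzyme gene Chac2 -0.71 and Slc3a2, the partner chain of the cystine transporter, -0.63.

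Of 9 other genes of NADPH supply and the pentose phosphate pathway, 2 passed 2-fold downward and 0 upward. The backgrounds were 4.48% and 6.22%. The 2 lower genes were Rpe and Rpia, whose enzymes interconvert the pentose phosphates. Rpe had 778 in 4T1-3R_L cells and 1590 in parental cells. Rpia had 1144 in 4T1-3R_L cells and 2293 in parental cells, 2.0-fold lower, and reached 2-fold in 5 of 10 alternative settings. The second Rpe probe set, at 580 in 4T1-3R_L cells against 1157 in parental cells, came to just under 2-fold. H6pd, the hexose phosphate dehydrogenase of the endoplasmic reticulum, had 0.73, cytosolic Idh1 0.52 and mitochondrial Idh2 -0.41. In the selenoprotein synthesis list, 4 of 8 measured genes had ratios above 0 and 4 below. That list also holds the selenoprotein genes Selenow, Selenof and Selenok, all above 0, the last 2 at 0.36 and 0.47. Among its genes for making selenoproteins, Sepsecs alone was above 0. Secisbp2, which recognises the selenocysteine insertion element, had 192 in 4T1-3R_L cells and 500 in parental cells, 2.61-fold lower, with -0.49 on its second probe set. The kinase gene Pstk, Sephs2 and Eefsec, all needed to make or deliver selenocysteine, had ratios of -0.76, -0.59 and -0.50. The plain _at probe sets of Sephs2 gave -0.16 and -0.65. Sepsecs, which makes the selenocysteine on its tRNA, had 0.10, and at least 0.58 on its second probe set. The small selenoprotein gene Selenow was 2.82-fold higher (12626 in 4T1-3R_L cells against 4479 in parental cells), with 0.95 on its second probe set.

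The cell types that could add redox transcripts were checked by marker lists. Liver cells express many of these genes strongly, and 0 of 11 hepatocyte markers, Alb, Apoa1 and Ttr among them, reached the floor on either array; their summed signal was 347 in 4T1-3R_L cells and 422 in parental cells. Endothelial markers were at the floor in 0 of 7 genes on both arrays. Of 10 leukocyte markers, 1 reached the floor in 4T1-3R_L cells and 2 in parental cells, with summed signals of 743 in 4T1-3R_L cells and 1668 in parental cells and the defining marker Ptprc under the floor on both. The macrophage marker Cd68 had 374.0 in 4T1-3R_L cells and 388.0 in parental cells, and Csf1r, the macrophage colony-stimulating factor receptor, had 88.1 in 4T1-3R_L cells and 1026 in parental cells. The part of such cells in the redox results was not tested. Of 10 fibroblast and stellate cell markers, 1 reached the floor in 4T1-3R_L cells and 2 in parental cells, with summed signals of 495 in 4T1-3R_L cells and 647 in parental cells. The mammary carcinoma epithelium markers Krt8 and Krt18 had signals of 21891 and 20614 in 4T1-3R_L cells and 18784 and 23738 in parental cells. Krt14 and Epcam were 171 and 1776 in 4T1-3R_L cells and 5324 and 7536 in parental cells. Cdh1 had 5941 in 4T1-3R_L cells and 11787 in parental cells, and Krt5 lay under the floor on both arrays. The 6 markers summed to 50451 in 4T1-3R_L cells and 67247 in parental cells.

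**Figure D4:**
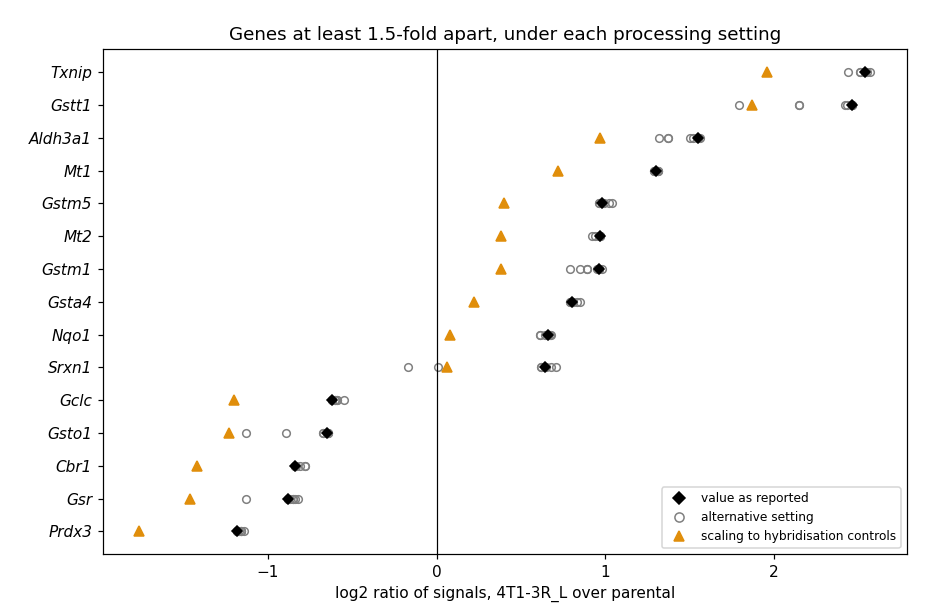
log2 ratio of signals, 4T1-3R_L over parental, of the 15 members at least 1.5-fold apart under each processing setting: diamonds are the values as reported, triangles the scaling to hybridisation controls, open circles the other alternatives. Every member shown kept its sign under all settings except Srxn1, which came to -0.17 when only plain _at probe sets were used; the triangles lie to the left of the diamonds throughout.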

How the data were processed

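The authors deposited linear intensities for each probe set, 1 column an array; the submitters' processing notes name MAS5. No source used here gives its version, scaling target or detection calls. The deposited intensities had a 2% trimmed mean of 500.003 on both arrays, so the same scaling applied here left them unchanged. Gene names came from the platform annotation and the GRCm38.p6 RefSeq gene table: 34945 carried a single gene, 932 carried several, and 9160 other than controls were unlisted. Signals under the floor of 90.6 were set to it before log2. The ratio is 4T1-3R_L over parental, and a fold against a value under the floor is a bound. With 1 array a group no test was made; the array number limits the precision. Genes were counted past 1.5-fold and 2-fold beside the share of all measured genes past it.

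Every member was named; other pathway genes were named where at least 2-fold apart, with up to 3 more of each list by size, and any further gene was picked with its value known. The members, lists, motifs and alternatives were chosen with earlier results of these data known. The procedure was tested on simulated data, with changes planted only in genes far above the floor and checked as medians over gene sets. Recovery of changes in single genes or in genes near the floor was not checked. Python 3.11.15, numpy 2.4.6, pandas 2.3.3 and statsmodels 0.14.6 (loess) were used.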

Additional observations from a re-analysis of the deposited data

How the results depend on the processing

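The alternatives were 3 scalings of the ratios (median centring, quantile, loess), scaling to 18 hybridisation control probe sets, floors at the 40th and 60th percentile, a pseudocount of 32 with and without the filter, the median over probe sets, and plain _at probe sets. Those applied to the pathway genes outside the members were chosen after seeing the data. A value was taken as moved when it shifted by more than 0.35, the median gap between a gene's first and second probe set, and a count when it changed over 1.5 times. No paired analysis was possible because each group has 1 array.

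Scaling to the hybridisation controls lowered the ratios of all 40 members measured in that setting; Sod3 was not measured in it. Members at least 1.5-fold higher and lower then numbered 4 and 12, and at least 2-fold 2 and 8, while the background at 1.5-fold became 4.79% higher and 47.2% lower. The median of the members was -0.38, and class medians were -0.13 for regulators, -1.06 for glutathione synthesis and recycling, -0.16 for peroxidases, -0.23 for transferases, -0.39 for the thioredoxin system, -0.99 for peroxiredoxins, -0.62 for superoxide dismutases and catalase, -0.40 for NADPH supply, -0.22 for quinone, aldehyde and epoxide enzymes and 0.55 for metallothioneins. Relative to the median gene of that setting, each class kept its side except superoxide dismutases and catalase, at -0.08 without Sod3; leaving Sod3 out in the deposited scaling gave -0.03. Pathway genes outside the members then numbered 0 higher and 11 lower at 2-fold, where the background was 2.18% higher and 20.6% lower. Members at least 2-fold lower were 2 with the median over probe sets and 2 with plain _at probe sets, against 3.85% and 4.92% of all measured genes. The plain _at setting has 31 measured members, put the transferase median at 0.80 and turned Srxn1 to -0.17. Pathway genes at least 2-fold lower were 2 under quantile, loess and both pseudocount settings, and those higher were 3 with plain _at probe sets. The shares of all genes lower were 4.44% under quantile, 4.23% under loess, and 4.43% and 3.49% under the pseudocount with and without the filter. The share higher with plain _at probe sets was 6.01%. Depth is set by signal over background: Gstt1 and Sod3 have parental signals near or under the floor.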
